A study of Homo sapiens with 6 samples.

Results

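In HCT116 cells that overexpressed RBM47, the asparagine synthetase gene ASNS lay higher than in control cells in all 3 libraries, while of 9 enzymes of serine, folate and proline synthesis 0 rose and 5 fell, in a table where 19.1% of genes rose and 16.9% fell. Of the 5 falls, those of SHMT2 and PYCR1 kept their call with a correction for GC content and with each library left out in turn, and those of PHGDH, SHMT1 and ALDH18A1 did not. PYCR1 passed that correction narrowly (edgeR adjusted p = 0.042). PSAT1, not among the 5, was called lower with it (edgeR adjusted p = 0.0054). The 10 genes were ASNS, PHGDH, PSAT1, PSPH, SHMT1, SHMT2, MTHFD2, ALDH1L2, PYCR1 and ALDH18A1, out of 28491 genes in the count table, and all 10 were among the 16260 genes that passed the filter on low counts. They were chosen by enzyme function, starting from ASNS, which was picked because it was higher in these same libraries. The values of ASNS are therefore a description with no test, and the question asked of the other 9 was whether they moved with it. HCT116 is a human colorectal carcinoma cell line. Cells transfected with a control plasmid (NC) or with a plasmid carrying RBM47, an RNA-binding protein (RBM47-OE), were sequenced as poly(A) RNA 48 h later, with 3 libraries in each group. Both groups received a plasmid with a lipid reagent and shared one medium with fetal bovine serum, which the sample labels give as DMEM and the methods as McCoy's 5A. The sources also differ on the RBM47 plasmid, which is pcDNA3.1-3xFlag in the labels and pIRES-hrGFP-1a in the methods. As background, DMEM contains serine and glycine but no asparagine or proline, whereas McCoy's 5A contains all of these. Uptake of the plasmid cell by cell was not measured, so each value is a mean over the whole culture, and a level that fell in fewer cells and one that fell a little in all of them cannot be told apart. No source says whether the 3 libraries of a group came from separate cultures, so p-values measure the spread between these libraries, which may be technical.

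The pathways share substrates. ASNS moves an amide group from glutamine to aspartate and so makes asparagine. PHGDH, PSAT1 and PSPH turn the glycolytic intermediate 3-phosphoglycerate into serine. SHMT2 in mitochondria and SHMT1 in the cytosol and nucleus split serine into glycine and a carbon unit carried on tetrahydrofolate. MTHFD2 and ALDH1L2 oxidise that unit further inside mitochondria. ALDH18A1 and PYCR1 carry glutamate to proline. Many of these genes are known targets of ATF4, a transcription factor whose translation rises when cells lack amino acids or when misfolded proteins load the endoplasmic reticulum. A known element for it in gene control regions joins a C/EBP site to an ATF site and has the core TGATGNAA.

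Reference promoter sequence was at hand for 6 of the 10 genes (ASNS, PHGDH, PSAT1, SHMT1, MTHFD2 and ALDH18A1), as RefSeq windows of GRCh38.p14 that run from 250 bases before to 50 bases after a transcript start. ALDH1L2, PSPH, PYCR1 and SHMT2 had no window. The core TGATGNAA was searched on both strands. It was found in 1 of the 6 genes, ASNS, and in 4.46% of all 27305 genes with a window. In ASNS it lies from 68 to 61 bases before the start, at chr7:97872469-97872476 on the minus strand. Of the 24 genes with a window in a list of ATF4, its kinases and its other targets, 7 had the core. CHAC1 and CEBPG are shown with ASNS as examples from that list. ATF3 and SLC3A2, whose levels are also described with the list, had the core too and are not shown. A related core, TGACGTAA, was in 0.513% of all genes with a window, in ALDH18A1 among the 6, and in 0 of the 24 genes of that list. The windows below read 5′ to 3′ on the strand of the gene and stop before the transcript start, and capitals mark the core as it reads on that strand. In CHAC1 the core lies on the other strand and so appears as its reverse complement. A match in such a window is a description of the letters, and binding was not measured.
ASNS, chr7:97872443-97872502, minus strand: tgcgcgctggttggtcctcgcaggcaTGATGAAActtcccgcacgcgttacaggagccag
CEBPG, chr19:33374045-33374104, plus strand: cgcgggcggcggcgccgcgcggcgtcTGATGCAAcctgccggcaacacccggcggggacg
CHAC1, chr15:40953236-40953295, plus strand: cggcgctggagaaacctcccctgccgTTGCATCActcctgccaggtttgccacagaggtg
ALDH18A1, chr10:95656712-95656749, minus strand: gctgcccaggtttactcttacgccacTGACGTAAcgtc

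The libraries held 26792409 to 35477983 counts on genes. RBM47 itself had 501 to 797 counts in NC and 34858 to 41818 in RBM47-OE, where reads from the plasmid and from the cells' own gene cannot be told apart. Of 10 markers of colorectal epithelium, 9 had at least 459 counts in every library and VIL1 had 5 to 20. At an adjusted p-value under 0.05, 1 of them rose (EPCAM) and 3 fell (KRT8, KRT18 and CLDN7), and with GC trends removed as described next 1 rose and 0 fell. Of 13 markers of fibroblasts, endothelium and blood cells 8 were analysed, and their summed FPKM (fragment counts scaled to gene length and library size) was 1.96 to 2.21 in NC and 1.65 to 2.01 in RBM47-OE, against 1879 to 2211 for the epithelial markers over all libraries. In this list COL1A1 had 378 to 537 counts in every library, VWF 29 to 50, CD68 7 to 30, PDGFRB 6 to 25, and COL3A1, PECAM1, CDH5 and CD3E 0 to 8. Of the 4 that passed the filter on low counts CD68 fell, by 1.10 (SE 0.40, edgeR adjusted p = 0.033), and it stood at -0.94 (edgeR adjusted p = 0.11) with GC trends removed. The libraries also differed by the GC content of genes. Across genes, Spearman's rho of the log2 difference from NC with the GC content of the exons was -0.41, -0.59 and -0.67 for replicates 1, 2 and 3 of RBM47-OE and -0.16 to 0.13 for each NC library against the other two. A second edgeR fit, in which a smooth trend with GC content was taken out of each library (the GC offset), is therefore given beside the members. In the fit without it, 35.9% of all genes tested passed an adjusted p-value of 0.05 (edgeR's quasi-likelihood test, Benjamini-Hochberg adjustment over all genes tested), 19.1% upward and 16.9% downward. With it, 14.5% passed, 5.99% upward and 8.47% downward. With libraries scaled by their total counts in place of TMM, 3693 genes were higher and 1889 lower, against 3100 and 2740.

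ASNS (ENSG00000070669) lies on chromosome 7 (GRCh38, 97851677 to 97872542, minus strand). NC replicates 1, 2 and 3 read 21.79, 22.21 and 19.92 FPKM and the same replicates of RBM47-OE read 32.15, 36.89 and 40.74. The groups did not overlap, and replicate 3 of RBM47-OE held the highest value. ASNS averaged 21.3 ± 1.22 FPKM (SD, n = 3) in control cells and 36.6 ± 4.30 FPKM (SD, n = 3) with RBM47. On the counts, which were 3250 to 4351 in NC and 5867 to 6405 in RBM47-OE, the level was 1.63-fold higher, a log2 fold change of 0.71 (standard error, SE, 0.079). Of the genes tested, 1.62% had a higher log2 fold change, a place that follows from ASNS having been picked for its rise. The difference was 0.53 (SE 0.062), or 1.44-fold, with the GC offset, and 0.62 to 0.79 with each library left out in turn. Of all genes tested, 46.5% had groups that did not overlap, 23.2% with RBM47-OE above NC. In the edgeR fit 1.51% were higher by the study's criteria, which ask for more than 1.5-fold at an unadjusted p below 0.01 (0.487% with the GC offset). The study itself applied these criteria with DESeq2, so these shares are not its own counts. ASNS was past that fold without the GC offset and short of it with the offset. A long noncoding RNA gene on the same strand, RP5-1090P18.1 (ENSG00000284707), shares 2415 exonic bases with ASNS in GENCODE 44 and had 85 to 112 counts in NC and 53 to 70 in RBM47-OE. It had a log2 fold change of -0.75 (SE 0.20, edgeR adjusted p = 0.0045), and how reads on the shared bases were assigned is not given in the sources used here.

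**Figure D1:**
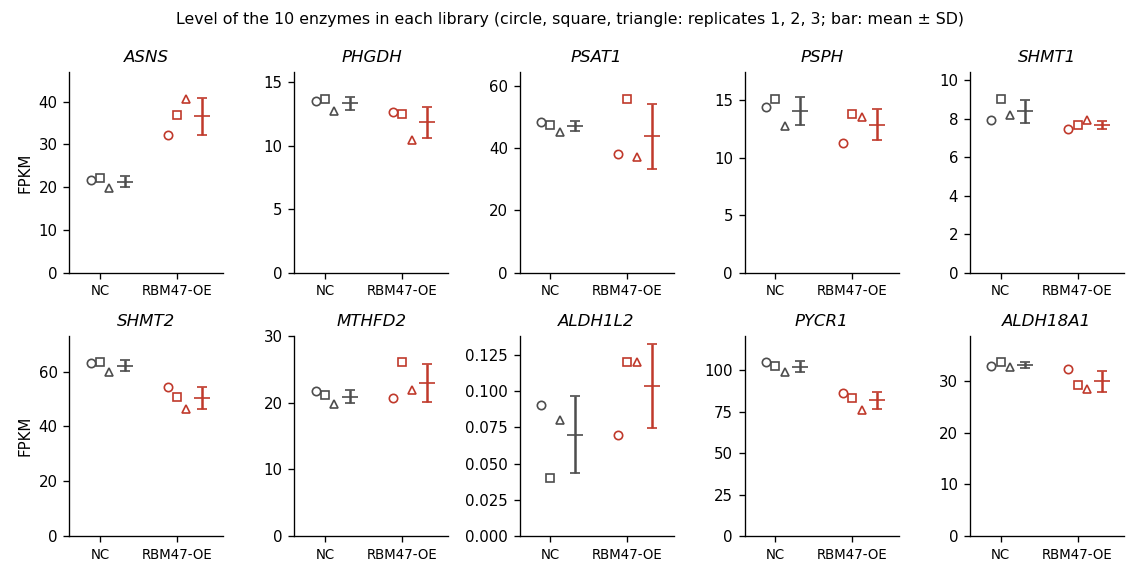
FPKM of each of the 10 enzymes (linear axes from 0) in the 3 NC libraries (grey) and the 3 RBM47-OE libraries (red); circles, squares and triangles are replicates 1, 2 and 3, and bars are the mean ± SD (n = 3). ASNS was 32.15 to 40.74 in RBM47-OE against 19.92 to 22.21 in NC, while SHMT2 and PYCR1 lay below NC in all 3 RBM47-OE libraries and PSAT1 was high in RBM47-OE replicate 2 alone.

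Among the other 9 enzymes 0 rose and 5 fell at an adjusted p-value under 0.05 (edgeR's quasi-likelihood test), where 19.1% of all genes tested rose and 16.9% fell. The 5 were PHGDH, SHMT1, SHMT2, PYCR1 and ALDH18A1, and these were also the 5 whose groups did not overlap, with RBM47-OE below NC, a pattern that 23.4% of all genes tested had. Of the 9, 0 met the study's criteria in either direction, with or without the GC offset, where 0.873% of genes were lower without it and 0.542% with it. The median log2 fold change of the 9 was -0.20, against 0.00 for all genes tested. Without a test of single genes the signs were 7 lower and 2 higher, and the members were listed with earlier results of these libraries known, so these counts are descriptions. SHMT2 and PYCR1 fell with each library left out in turn, with adjusted p-values of at most 0.0085 and 0.0048. Without NC replicate 1, or without NC replicate 2, they were the only ones of the 9 called. PSPH was called lower when replicate 3 of either NC or RBM47-OE was left out (edgeR adjusted p = 0.047 and 0.048).

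Of the 3 enzymes of serine synthesis 0 rose. PHGDH (chr1:119648411-119744218, plus strand), the enzyme that draws 3-phosphoglycerate into the pathway, stood at 13.53, 13.72 and 12.74 FPKM across NC replicates 1, 2 and 3, against 12.62, 12.47 and 10.42 across those of RBM47-OE. It fell by 0.24 in log2 units (SE 0.077, edgeR adjusted p = 0.016). The groups were close at their edges, and replicate 3 of RBM47-OE was the lowest library, at -0.42 from the NC mean. Without that library the log2 fold change was -0.16 (edgeR adjusted p = 0.10), without NC replicate 1 or 2 the adjusted p was 0.074 or 0.089, and with the GC offset it was -0.13 (edgeR adjusted p = 0.16).

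PSAT1 (chr9:78297125-78330093, plus strand), the aminotransferase of the second step, stood at 48.28, 47.42 and 45.20 FPKM across the NC libraries, against 37.95, 55.84 and 37.25 across those of RBM47-OE. The NC libraries agreed closely, while in RBM47-OE replicate 2 lay above all of them and replicates 1 and 3 lay below. Over all 3 libraries its log2 fold change was -0.18 (SE 0.097, edgeR adjusted p = 0.15). Without RBM47-OE replicate 2 PSAT1 fell by 0.37 (edgeR adjusted p = 0.0023), and with the GC offset it fell by 0.39 (edgeR adjusted p = 0.0054). Without RBM47-OE replicate 1 or 3 it stood at -0.10 or -0.08 (edgeR adjusted p = 0.44 or 0.58). PSPH (chr7:56011051-56051604, minus strand), the phosphatase that releases serine, stood at 14.36, 15.13 and 12.75 FPKM across the NC libraries, against 11.31, 13.77 and 13.54 across those of RBM47-OE. These groups overlapped, and the log2 fold change was -0.20 (SE 0.086, edgeR adjusted p = 0.067). PSPH has an unprocessed pseudogene, PSPHP1, with 107 to 142 counts against 1164 to 1672 for PSPH, and reads could have been shared between them.

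Of the enzymes that take a carbon unit from serine, SHMT2 fell with and without the GC offset and SHMT1 only without it. SHMT2 (chr12:57229573-57234935, plus strand) stood at 63.21, 63.50 and 59.69 FPKM across NC replicates 1, 2 and 3, against 54.27, 50.80 and 46.31 across those of RBM47-OE. Every RBM47-OE library lay below every NC library. SHMT2 fell by 0.37 in log2 units (SE 0.075, edgeR adjusted p = 0.00054), which is 1.29-fold, and by 0.20 with the GC offset (SE 0.057, edgeR adjusted p = 0.025). SHMT1 (chr17:18327860-18363563, minus strand), the cytosolic and nuclear form, stood at 7.91, 9.04 and 8.17 FPKM across the NC libraries, against 7.48, 7.65 and 7.90 across those of RBM47-OE. The groups were parted by a narrow margin. SHMT1 fell by 0.20 (SE 0.074, edgeR adjusted p = 0.039), and the fold change was -0.14 (edgeR adjusted p = 0.28) without NC replicate 2, the highest NC library, and -0.08 (edgeR adjusted p = 0.44) with the GC offset. Without NC replicate 1, NC replicate 3 or RBM47-OE replicate 2 the adjusted p was 0.059, 0.086 or 0.11.

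The 2 mitochondrial enzymes that oxidise the carbon unit did not pass the test. MTHFD2 (chr2:74186172-74217565, plus strand), often high in tumours, stood at 21.70, 21.23 and 19.89 FPKM across the NC libraries, against 20.75, 26.13 and 21.94 across those of RBM47-OE. As with PSAT1, replicate 2 of RBM47-OE was the highest library. The log2 fold change of MTHFD2 was 0.06 (SE 0.076, edgeR adjusted p = 0.59), and it was -0.03 without that replicate and -0.12 with the GC offset. ALDH1L2 (chr12:105019784-105107643, minus strand), which oxidises 10-formyl-tetrahydrofolate in mitochondria, had the fewest counts of the members. It had 26, 16 and 26 counts in NC and 25, 38 and 37 in RBM47-OE, or 0.04 to 0.12 FPKM over all libraries. Its log2 fold change was 0.47 with an SE of 0.35 (edgeR adjusted p = 0.32), the widest SE among the members. WASHC4, a gene on the opposite strand, shares 131 exonic bases with ALDH1L2 and had 635 to 915 counts in NC and 1146 to 1490 in RBM47-OE. Whether strand was used in counting is not given in the sources used here, and the part of WASHC4 reads in the ALDH1L2 counts was not tested. SHMT1, SHMT2, MTHFD2 and PYCR1 also share exonic bases with counted genes on the opposite strand. SMCR8, with 1106 to 1441 counts over all libraries, shares 197 with SHMT1. A long noncoding RNA gene with 127 to 197 counts, RP11-498C9.13, shares 450 with PYCR1. The part of such reads was not tested for these members either.

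Both proline enzymes fell. PYCR1 (chr17:81932384-81942412, minus strand), the mitochondrial reductase of the last step, stood at 105.12, 102.68 and 98.82 FPKM across NC replicates 1, 2 and 3, against 86.14, 83.35 and 76.13 across those of RBM47-OE. The gap between the groups was wider than the spread within either. PYCR1 fell by 0.39 in log2 units (SE 0.072, edgeR adjusted p = 0.00027), which is 1.31-fold, and by 0.17 with the GC offset (SE 0.056, edgeR adjusted p = 0.042). ALDH18A1 (chr10:95605941-95656711, minus strand), which makes the precursor of the ring that PYCR1 reduces, stood at 32.81, 33.63 and 32.65 FPKM across the NC libraries, against 32.23, 29.13 and 28.41 across those of RBM47-OE. Replicate 1 of RBM47-OE lay next to the NC libraries and the other two lay lower. ALDH18A1 fell by 0.21 (SE 0.073, edgeR adjusted p = 0.024), and with the GC offset the log2 fold change was -0.15 (edgeR adjusted p = 0.10). It no longer passed with any 1 library left out other than RBM47-OE replicate 1, with adjusted p-values of up to 0.11.

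**Figure D2:**
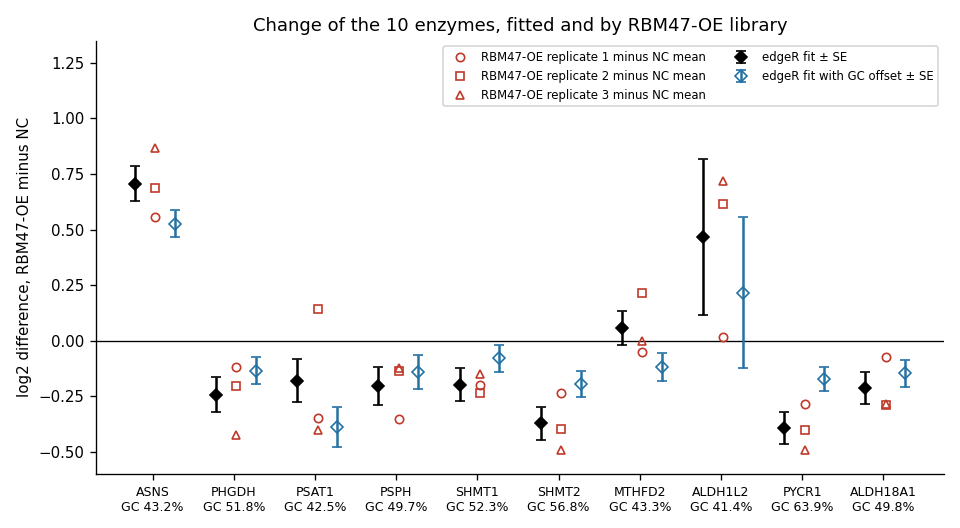
Log2 difference between RBM47-OE and NC for the 10 enzymes, with the edgeR estimate ± standard error (black), the estimate with the GC offset ± standard error (blue), and each RBM47-OE library minus the NC mean (red; circles, squares and triangles are replicates 1, 2 and 3); the GC content of the exons is printed under each name. ASNS stood at 0.71 and 0.53 with the GC offset, PYCR1 and SHMT2 at -0.39 and -0.37, and the RBM47-OE libraries lay on both sides of 0 for PSAT1 and MTHFD2.

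The members also differed in GC content. The 5 that fell had exons of 49.8% (ALDH18A1) to 63.9% GC (PYCR1), and PSPH had 49.7%. ASNS, PSAT1, MTHFD2 and ALDH1L2 had 43.2%, 42.5%, 43.3% and 41.4%. With the GC offset PSAT1, SHMT2 and PYCR1 were the 3 of the 9 that edgeR called lower, beside 8.47% of all genes tested, and again 0 were higher. ASNS, PSAT1 and MTHFD2 have nearly the same GC content, and their log2 fold changes with the offset were 0.53, -0.39 and -0.12. The offset takes out any change that runs with GC content, so the part of GC content in the falls was not tested.

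The order of the levels depended on the gene length behind the FPKM. The deposited values corresponded, for most genes, to counts over the length of all annotated exons of a gene together. For 91.0% to 91.2% of genes with at least 200 counts in a library, the implied length lay within 2% of that union in GENCODE 44. This union is 9187 bases for PHGDH and 11443 for MTHFD2, while their canonical transcripts have 1866 and 4403 bases. On the deposited scale the NC order was PYCR1 at 102.2 FPKM, SHMT2 at 62.1, PSAT1 at 47.0, ALDH18A1 at 33.0, ASNS at 21.3, MTHFD2 at 20.9, PSPH at 14.1, PHGDH at 13.3, SHMT1 at 8.37 and ALDH1L2 at 0.07. The neighbours ASNS and MTHFD2, and PSPH and PHGDH, overlapped between libraries, and all other neighbours were parted.

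With FPKM rescaled to the canonical transcript, a choice made after seeing the data, SHMT2 and PYCR1 stood first in NC at 132.3 and 130.0 and overlapped. PHGDH followed at 65.6, MTHFD2 at 54.4, PSAT1 at 47.0, ASNS at 43.7, ALDH18A1 at 37.0, SHMT1 at 23.2, PSPH at 19.7 and ALDH1L2 at 0.0895, and of these neighbours PSAT1 and ASNS alone overlapped. PHGDH thus went from 8th to 3rd in the order. In RBM47-OE on the same scale ASNS stood 3rd at 75.1 FPKM, after SHMT2 at 107.4 and PYCR1 at 104.1 and clear of both. Below it the libraries of ASNS and MTHFD2 (59.6) overlapped, as did those of MTHFD2 and PHGDH (58.3) and of PHGDH and PSAT1 (43.7). Neither length is the measured transcript length in these cells, so levels between genes hold only within a scale, whereas fold changes of a gene are the same on both.

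**Figure D3:**
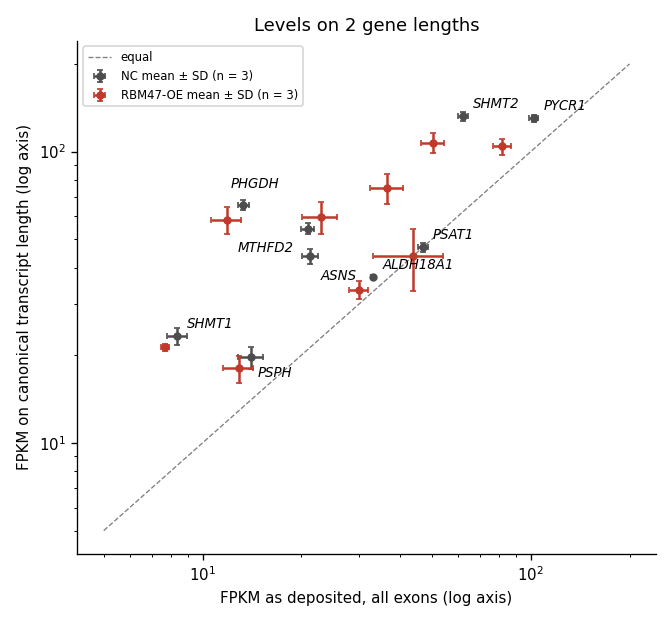
Mean level ± SD (n = 3) of 9 of the enzymes in NC (grey) and RBM47-OE (red) as deposited (horizontal, FPKM over all exons) and rescaled to the canonical transcript (vertical), on log axes; gene names stand beside the NC points, ALDH1L2 at 0.07 FPKM is left out, and the dashed line marks equal values. PSAT1 lies on the line, and PHGDH lies farthest above it at 13.3 and 65.6.

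Other forms of the same enzymes were compared. PYCR3, a cytosolic reductase that makes proline, fell by 0.50 (SE 0.10, edgeR adjusted p = 0.00065), and by 0.28 with the GC offset (edgeR adjusted p = 0.048). MTHFD1L, which releases formate from mitochondria, fell by 0.31 (SE 0.070, edgeR adjusted p = 0.0016) and also with the GC offset, by 0.23 (edgeR adjusted p = 0.0085). The cytosolic enzyme MTHFD1 had a log2 fold change of -0.02 (SE 0.070, edgeR adjusted p = 0.87). MTHFD2L, the paralog of MTHFD2, rose by 0.36 (SE 0.14, edgeR adjusted p = 0.043) on 167 to 273 counts, although its groups overlapped, and stood at 0.02 with the GC offset. ALDH1L1, the cytosolic counterpart of ALDH1L2, had 2 to 17 counts. ASNSD1, which is named for a domain like that of ASNS and is not known to make asparagine, rose by 0.26 (SE 0.097, edgeR adjusted p = 0.036) and stood at -0.04 with the GC offset. The processed pseudogenes ASNSP3 and PSAT1P3 had at most 3 counts in any library.

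Each of the wider pathways held genes that rose and genes that fell. Of 12 genes tested in a list of asparagine, aspartate and glutamine metabolism, 4 rose and 3 fell, with a median log2 fold change of 0.05, in a table where 19.1% of genes rose and 16.9% fell. The aspartate aminotransferases GOT2 and GOT1, which make the aspartate that ASNS uses, fell by 0.35 and 0.30 (SE 0.072 and 0.076, edgeR adjusted p = 0.00067 and 0.0038), and by 0.38 and 0.30 with the GC offset. SLC1A5, a glutamine importer, fell by 0.30 (SE 0.072, edgeR adjusted p = 0.0023), and with the GC offset it stood at -0.09 (edgeR adjusted p = 0.37). SLC38A2, an amino acid importer known as an ATF4 target, and NARS1, which loads asparagine onto its tRNA, rose by 0.36 and 0.34 (SE 0.082 and 0.083, edgeR adjusted p = 0.0014 and 0.0027). SLC1A3, an aspartate and glutamate importer, rose by 0.39 (SE 0.11, edgeR adjusted p = 0.0079). Once GC trends were taken out these 3 stood at 0.02, 0.12 and 0.15. The list then had 0 genes higher and 4 lower, where 5.99% of all genes tested were higher and 8.47% lower. The 4 were GOT1, GOT2, GLUL and GLUD1. Without the offset GLUL and GLUD1 were not called, at -0.157 and 0.083 (edgeR adjusted p = 0.079 and 0.37). With it they stood at -0.185 and -0.195, so the offset reversed the sign of GLUD1.

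Of 16 genes tested for the use and transport of serine and glycine, 3 rose (18.8%) and 2 fell (12.5%), near the 19.1% and 16.9% of all genes tested, with a median of -0.06. The 3 were DLD, a subunit of the glycine cleavage system and of the pyruvate dehydrogenase complex, at 0.52 (SE 0.078, edgeR adjusted p = 4.9e-05), and SPTLC1 and SPTLC2, which join serine to a fatty acid in sphingolipid synthesis, at 0.47 and 0.36. DLD and SPTLC1 also rose with the GC offset, by 0.18 and 0.30 (edgeR adjusted p = 0.034 and 0.0025), while SPTLC2 stood at 0.10 (edgeR adjusted p = 0.21). GCAT, of threonine breakdown to glycine, and SDSL, related to serine dehydratase, fell by 0.30 and 0.29 (edgeR adjusted p = 0.0023 and 0.014), and neither passed with the offset, at -0.08 and -0.09 (edgeR adjusted p = 0.34 and 0.47).

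Of 22 other folate and one-carbon genes tested, 4 rose (18.2%) and 7 fell (31.8%), against 19.1% and 16.9% of all genes tested. The median was -0.06. With the GC offset 1 rose and 8 fell, where 5.99% of all genes tested rose and 8.47% fell. The 8 were not simply the 7 with 1 added. They include SLC25A32, MAT2B, GART and MTFMT, which were not called without the offset, at 0.01, -0.02, -0.07 and -0.09. TYMS, FPGS and SLC19A1 fell without the offset and were not called with it. AHCY and MAT2A, enzymes of the methionine cycle, fell by 0.49 and 0.46 (SE 0.074 and 0.079, edgeR adjusted p = 4.9e-05 and 0.00013). Both fell with the offset too, by 0.34 and 0.58. SLC19A1, a folate importer, fell by 0.38 (SE 0.084, edgeR adjusted p = 0.0010) and stood at -0.17 (edgeR adjusted p = 0.15) with the offset. GGH, which trims the glutamate tail of folates, and MTR, which makes methionine with a folate carbon unit, rose by 0.24 and 0.22 (edgeR adjusted p = 0.018 and 0.028) and stood at -0.07 and 0.10 with the offset.

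Of 14 other proline genes tested, 3 rose (21.4%) and 4 fell (28.6%), against 19.1% and 16.9% of all genes tested. The median was -0.09. Beside PYCR3, PARS2, the mitochondrial prolyl-tRNA synthetase, fell by 0.29 (edgeR adjusted p = 0.041) and stood at -0.14 (edgeR adjusted p = 0.39) with the GC offset. P4HA1, which hydroxylates proline in collagen, rose by 0.51 (SE 0.069, edgeR adjusted p = 2.7e-05) and by 0.23 with the GC offset (edgeR adjusted p = 0.0078). EPRS1, which loads glutamate and proline onto their tRNAs, and the amino acid transporter SLC36A4 rose by 0.44 and 0.32 (edgeR adjusted p = 0.00059 and 0.017), and stood at 0.20 and -0.05 with the offset.

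**Figure D4:**
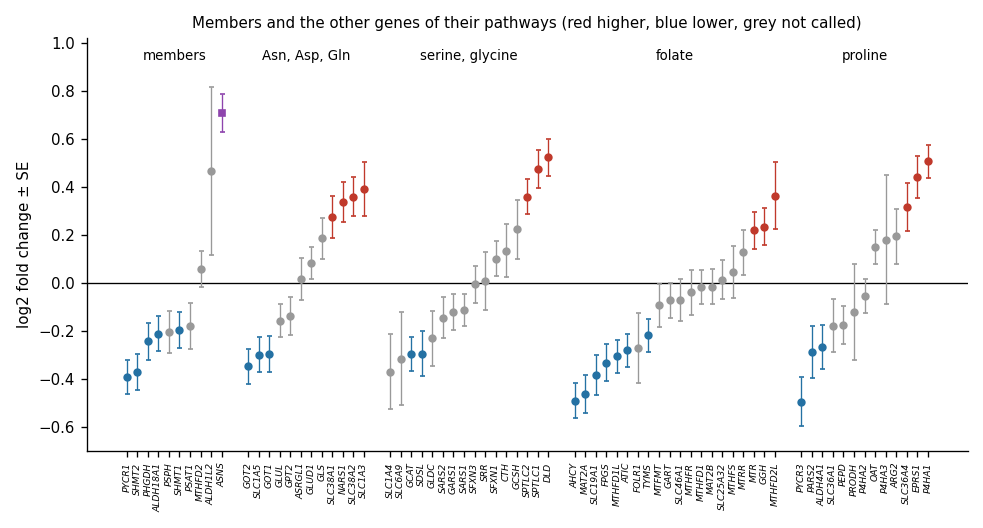
Log2 fold change ± standard error for the members and for genes tested in 4 lists of their pathways, ordered by value within each list; red genes rose and blue genes fell (edgeR, adjusted p below 0.05), grey genes were not called, and ASNS (purple square) is shown with no test. ASNS at 0.71 lies above every other gene drawn, and each list holds genes on both sides of 0.

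ATF4 and its other targets differed widely between the RBM47-OE libraries, and the library with the most ASNS was not the one with the most of these mRNAs. ATF4 mRNA had 422, 405 and 371 CPM (counts scaled to TMM-normalized library size) across NC replicates 1, 2 and 3 and 347, 452 and 230 across those of RBM47-OE. The groups overlapped, and the log2 fold change was -0.22 (SE 0.13, edgeR adjusted p = 0.20). Without RBM47-OE replicate 2 ATF4 fell by 0.47 (edgeR adjusted p = 0.0076), and without RBM47-OE replicate 3 its log2 fold change was 0.0. CHAC1, which degrades glutathione and is a sensitive ATF4 target, stood at 8.49, 7.75 and 7.23 CPM across the NC libraries, against 9.09, 52.5 and 3.93 across those of RBM47-OE. DDIT3, the stress factor CHOP, stood at 21.8, 20.7 and 18.6 CPM across the NC libraries, against 31.9, 74.8 and 14.7 across those of RBM47-OE. For both genes replicate 2 lay far above NC and replicate 3 below it. Their log2 fold changes of 1.49 and 0.99 (edgeR adjusted p = 0.012 and 0.0070) were -0.25 and 0.20 without replicate 2 (edgeR adjusted p = 0.44 and 0.48). Without replicate 3 they were 1.98 and 1.39 (edgeR adjusted p = 5.1e-04 and 9.3e-05). ATF3 and SESN2, picked once their values were known, ranged in the same way. They spanned 23.0 to 68.7 and 18.5 to 56.1 CPM in RBM47-OE, against 41.6 to 46.2 and 29.5 to 31.7 in NC. ATF3 went from a log2 fold change of -0.05 (edgeR adjusted p = 0.87) to -0.57 (edgeR adjusted p = 0.0060) without replicate 2. Without replicate 3 it stood at 0.25 (edgeR adjusted p = 0.22).

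Of the 25 genes tested in this list, RBM47-OE replicate 2 was the highest RBM47-OE library for 19 and replicate 3 the lowest for 15, where these shares were 29.3% and 31.1% over all genes tested. The median range between the RBM47-OE libraries was 0.56 on the log2 scale for the list and 0.28 for all genes tested, and between the NC libraries it was 0.11 and 0.17. For ASNS the range was 0.31, with replicate 3 highest. PSAT1, at 0.55, and MTHFD2, at 0.27, had their highest value in replicate 2. These library values are without the GC offset. Spearman's rho with GC content was -0.41, -0.59 and -0.67 for replicates 1, 2 and 3 of RBM47-OE. ASNS stood at 0.56, 0.69 and 0.87 from the NC mean in the same order. PHGDH, SHMT2, PYCR1 and ALDH1L2 also lay farther from NC in that order, and PSAT1, PSPH, SHMT1, MTHFD2 and ALDH18A1 did not. What set the RBM47-OE replicates apart was not tested.

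In the test over all 3 libraries 8 genes of the list rose (32%) and 4 fell (16%), against 19.1% and 16.9% of all genes tested. The median log2 fold change was 0.19. With the GC offset 5 rose and 3 fell, with a median of 0.025, where 5.99% of all genes tested rose and 8.47% fell. In the fit without the offset, leaving out RBM47-OE replicate 2 gave 5 higher and 8 lower. The median was then -0.05, and over all genes there were 2332 and 1953. Without replicate 1 or replicate 3 of RBM47-OE there were 12 and 5, and 11 and 3. Over all genes these fits gave 3864 higher and 3508 lower, and 2419 higher and 2225 lower. CEBPG, a partner of ATF4, rose by 0.49 (SE 0.12, edgeR adjusted p = 0.0022), and its difference from NC was largest, at 0.88, in replicate 2. With the GC offset it stood at 0.25 (edgeR adjusted p = 0.12). EIF2AK3, a kinase that activates ATF4 translation, and XPOT, a tRNA exporter, rose by 0.35 and 0.31 (edgeR adjusted p = 0.011 and 0.0021) and stood at 0.08 and 0.04 with the GC offset. ATF5, a related factor, and SLC7A5 and SLC3A2, the 2 chains of a large amino acid importer, fell by 0.68, 0.49 and 0.46 (edgeR adjusted p = 4.5e-05, 0.00013 and 0.0013). All 3 also fell with the GC offset, by 0.49, 0.27 and 0.33.

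**Figure D5:**
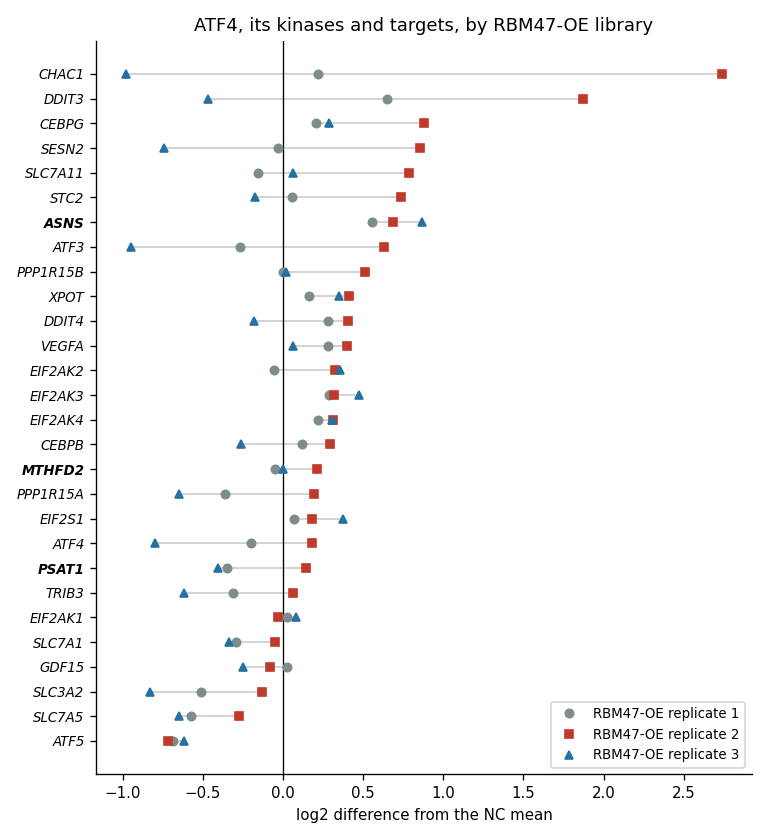
Log2 difference from the NC mean in RBM47-OE replicates 1 (grey circles), 2 (red squares) and 3 (blue triangles) for the 25 genes tested of the ATF4 list and for ASNS, PSAT1 and MTHFD2 (bold), ordered by replicate 2. CHAC1 and DDIT3 spread widest, with replicate 2 far above NC, while the 3 libraries of ASNS lie between 0.56 and 0.87.

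Over the 6 libraries the genes whose log2 CPM followed that of ASNS most closely were HMGN5, IDH1, RAB2A, UBA3 and FGD6, with Pearson's r of 0.9975 to 0.9995 among 14005 genes with a mean log2 CPM of at least 0. With 6 libraries, 889 genes (6.35%) had an r of at least 0.95, so a high r does not set a gene apart. Among the members r with ASNS was highest for ALDH1L2 at 0.55 and MTHFD2 at 0.35 and lowest for PYCR1 at -0.96. These values share libraries and depth. They are taken over both groups, so in part they restate the difference between the groups, for which ASNS was picked. They are given as descriptions.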

How the data were processed

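Per the labels and the methods, paired-end reads were trimmed and mapped to GRCh38 (HISAT2), and the authors deposited counts of uniquely mapped reads per gene for the 3 NC and 3 RBM47-OE libraries, without normalization. They also deposited FPKM made from the same alignments. The counting tool and annotation release are not given in the sources used here.

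Counts were tested with edgeR 4.0.16 in R 4.3.3 (filterByExpr with a minimum count of 10, TMM, quasi-likelihood test, condition as the only term) on 16260 genes, with Benjamini-Hochberg adjustment over all of them. Standard errors are the log2 fold change divided by the root of the F statistic, and log2 CPM used a prior count of 2. GC content, lengths and coordinates came from GENCODE 44 on GRCh38, matched by gene ID, and the GC offset used loess with a span of 0.3. DESeq2 1.42.0 and limma 3.58.1 on log2(FPKM + 1) and log2(FPKM + 0.1) were alternatives. The scripts were tested on simulated data.

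The members and gene lists were chosen with earlier results of these data known. Genes named were the members, their other forms, RBM47, ATF4, up to 3 called genes without overlap in each direction of each list, and the 5 nearest to ASNS by correlation. CHAC1, DDIT3, genes that overlap a member, and those said to be chosen later were added. Some genes that the rule names are not reported here. A two-sided exact permutation test of 3 libraries against 3 cannot go below p = 0.10, so none is given.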

Additional observations from a re-analysis of the deposited data

How the results depend on the processing

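ASNS was higher under every alternative run, with log2 fold changes of 0.53 to 0.79. SHMT2 fell in every alternative fit at an adjusted p-value under 0.05, and PYCR1 in all but the GC offset with the replicate block (edgeR adjusted p = 0.082). The remaining calls were less stable. Of the 9 members tested, 5 were lower, and this count was 2 with library totals, 3 with the GC offset, 2 with the GC offset and replicate block, 2 with limma on log2(FPKM + 1), log2(FPKM + 0.1) or unfiltered log2(FPKM + 1), 2 at an adjusted p-value under 0.01, 0 at the study's thresholds, and 2 to 5 with 1 library left out. The count of members higher was 0 in all of these. MTHFD2, at 0.06, turned to -0.12 with the GC offset, -0.12 with the block added, -0.061 with a length offset, and -0.026 to 0.12 with 1 library left out. Over all genes 3100 were higher and 2740 lower. These counts were 973 and 1375 with the GC offset, 1022 and 1428 with the GC offset and block, 245 and 142 at the study's thresholds, 2039 and 1661 at an adjusted p-value under 0.01, and 1416 and 912 with unfiltered limma. Lower genes numbered 1586 and 1599 with limma on log2(FPKM + 1) and log2(FPKM + 0.1), and 1675 to 3508 with 1 library left out. Library totals gave 3693 higher and 1889 lower. In the pathway and ATF4 lists 22 were higher and 20 lower. The higher count was 9 with the GC offset, 12 with the block added, 14 with the length offset, 14 with limma on either pseudocount, 7 unfiltered, and 14 to 27 with 1 library left out. The lower count was 13 with limma on log2(FPKM + 1) and 7 unfiltered. The causes of these shifts were not tested.

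Samples with the same replicate number did not deviate together (Pearson's r across genes -0.06, -0.015 and -0.016), so the numbers were not taken as pairs. With the replicate number as a block, 2957 genes were higher and 2510 lower, and 4 members were lower, since SHMT1 no longer passed (edgeR adjusted p = 0.081). ALDH1L2, at 16 to 38 counts, was the member with the least depth behind its values.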
